A study of Mus musculus with 3 samples.

Results

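The mitochondrial ribosomal protein genes are the nuclear genes whose products build the ribosome inside mitochondria, and they were taken as every entry of the expression table with a symbol that begins with Mrpl or Mrps followed by a digit. This rule found 76 of 23421 genes, of which 47 carry a large subunit symbol (Mrpl) and 29 a small subunit symbol (Mrps). The rule used no measured value. The study asked which transcripts differ in mouse embryos homozygous for tw18, a t lethal mutation of Chr 17 with a large deletion that removes *Ppp2r1a*, the scaffolding subunit of protein phosphatase 2A. RNA-seq was made at embryonic day (E)6.5 from 3 samples, 1 library each of wild-type, tw18/+ and tw18/tw18 embryos, all bred from crosses between tw18/+ parents and labelled as strain 129/SvEv. The labels name the tissue as epiblast, while the methods describe the embryo proper, that is the epiblast with the visceral endoderm around it, and the extra-embryonic part went into genotyping. How many embryos were used per library is not given in the sources used here. In its in situ hybridizations at this age the paper describes the mutant embryos as slightly younger. A difference in stage cannot be told apart from genotype with these libraries. The paper also proposes that non-inbred backgrounds, differing between embryos, might make the phenotype variable. With 1 library for each genotype no difference has a replicate check, so no test was made and every difference below is one between libraries.

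Mitochondria translate the few messages of their own DNA, all of them for subunits of the respiratory chain and the ATP synthase, on a ribosome that descends from a bacterial one. Its rRNAs are transcribed inside the organelle, but every one of its proteins is encoded in the nucleus, made in the cytosol and imported. Compared with a bacterial ribosome, the mammalian mitochondrial ribosome is poor in RNA and rich in protein, and many of its proteins have no bacterial relative.

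Values are FPKM (sequenced fragments per kilobase of transcript, scaled to library size), in which each gene is measured against the whole of its library, and a log2 ratio is that of 2 FPKM values without a pseudocount. By the spacing of low values, a single fragment on a transcript of 1 kb was worth 0.0675 FPKM in the wild-type library, 0.0483 in that of tw18/+ and 0.0486 in that of tw18/tw18, so wild type was the shallowest. The *Ppp2r1a* level was 146 FPKM in wild type, 81.7 in tw18/+ and 12.8 in tw18/tw18. The order is that of the labels, but the last value, 8.72% of wild type, is not the absence that a homozygous deletion of the gene would give, so tw18/tw18 here means the library labelled so. Whether this remainder came with the stroma and endothelium markers given next was not tested. The FPKM sum over all genes was 444064, 455078 and 383409. Part of this difference was in *Lars2*, the mitochondrial leucyl-tRNA synthetase, at 11199 in wild type and 9689 in tw18/+ and listed at 0 in tw18/tw18. These were 2.52% and 2.13% of the FPKM sum in wild type and tw18/+. They are not read here as the level of the synthetase message, nor the 0 as its loss. The source of these values was not tested. Of the marker lists, the 10 epiblast genes summed to 2289, 2476 and 1248 and the 10 visceral endoderm genes to 858, 831 and 1096, so that markers of both layers were detected in each library. The 10 extra-embryonic ectoderm genes summed to 16.1, 16.9 and 46.1, the 10 stroma genes to 148, 183 and 708, the 10 endothelium genes to 58.5, 48.5 and 129, and the 7 blood genes found to 54.4, 58.3 and 180. The blood sum rests on near-identical globin genes that moved in opposite directions, *Hba-a1* at 52.2, 27.1 and 0.00700 and *Hba-a2* at 0.0201, 26.9 and 127, and is uncertain as to which copy the fragments came from. Each of the 10 epiblast genes was lower in tw18/tw18 than in wild type, and 9 of 10 visceral endoderm genes and all 10 of the extra-embryonic ectoderm, stroma and endothelium genes were higher. *Plvap* among the endothelium genes was listed at 0 in wild type, and *Hbb-bh1* among the blood genes in all 3 libraries.

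All 76 mitochondrial ribosomal protein genes were expressed in every library, with none listed at 0. Their lowest, median and highest FPKM were 8.40, 37.9 and 153 in wild type, 5.46, 38.4 and 157 in tw18/+, and 8.21, 29.4 and 109 in tw18/tw18. The median member was above 83.0%, 83.0% and 80.0% of genes whose FPKM reached 1. The genes were also close to each other in level, with 59, 59 and 60 of the 76 within a factor of 2 of the median. Their summed FPKM was 3326 in wild type, 3430.3 in tw18/+ and 2555 in tw18/tw18, or 0.749%, 0.754% and 0.666% of the FPKM of each library.

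**Figure D1:**
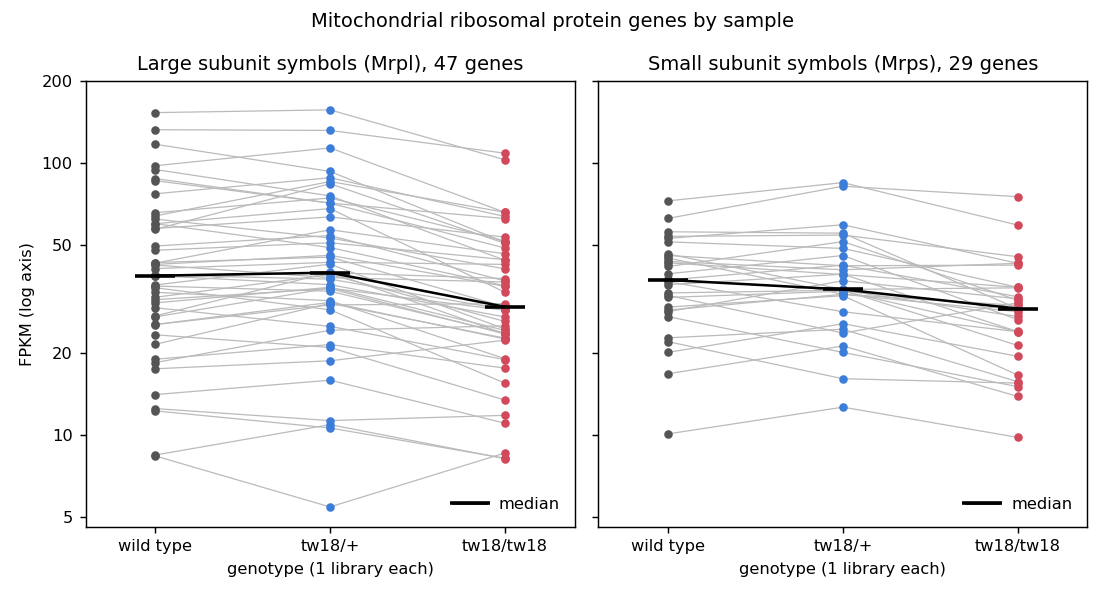
FPKM (log axis) of each mitochondrial ribosomal protein gene in the wild-type, tw18/+ and tw18/tw18 library, with grey lines joining the values of 1 gene and black bars at the median, for the 47 large subunit (left) and 29 small subunit genes (right). The medians are 38.6, 39.6 and 29.7 for the large and 37.2, 34.3 and 29.2 for the small subunit genes, and the order of the genes is much the same in each library.

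The most abundant members by mean FPKM were all but one of the large subunit. *Mrpl12*, a protein of the ribosomal stalk that contacts translation factors, was highest at 153 FPKM in wild type, 157 in tw18/+ and 103 in tw18/tw18. *Mrpl20*, an rRNA-binding protein of the large subunit core, followed with 133, 132 and 109. *Mrpl42* had 97.7, 114 and 65.9, *Mrpl18* 117, 93.1 and 51.2, and *Mrpl28* 77.1, 88.3 and 63.7. The level of each was lowest in tw18/tw18. The highest small subunit gene was *Mrps21*, with 62.6, 82.2 and 75.2. At the other end stood *Mrpl41* with 8.40, 5.46 and 8.61, *Mrpl35* with 8.47, 10.9 and 8.21, *Mrpl19* with 12.3, 10.6 and 8.24, and the small subunit gene *Mrps25* with 10.1, 12.7 and 9.83. These genes had no common order of genotypes. *Mrpl17* and *Mrpl1* were also among the 6 lowest, at 12.54, 11.3 and 11.8 for the former and 14.1, 15.9 and 11.1 for the latter. The highest and the lowest member differed 18.2-fold in wild type, 28.7-fold in tw18/+ and 13.2-fold in tw18/tw18, although the proteins are held in the ribosome in about equal numbers, with the stalk protein as the known exception. Across the 76 genes the levels had a Spearman correlation of 0.930 between wild type and tw18/+, 0.906 between wild type and tw18/tw18 and 0.912 between tw18/+ and tw18/tw18. These points are genes that share transcript lengths and libraries and are not independent replicates.

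In tw18/tw18 most mitochondrial ribosomal protein genes were lower than in wild type. The lower value was in tw18/tw18 for 65 of the 76 genes (85.5%, beside 50.9% of all 12625 genes compared) with the deposited FPKM, and for 49 (64.5%, beside 36.5% of 12789 genes) when the libraries were scaled to equal FPKM sums. Their median log2 ratio was -0.34, with an interquartile range from -0.57 to -0.10, beside -0.02 over all genes with a range from -0.39 to 0.52. Past a log2 ratio of 0.5, 28 members (36.8%) were lower, where 19.3% of all genes were, and 0 were higher, where 25.7% of all genes were. Past a ratio of 1 only *Mrpl18*, *Mrpl21* and *Mrpl30* were lower (3.95%, beside 6.42% of all genes) and again 0 were higher (13.8% of all genes). The difference was thus of small size in single genes and shared by many of them. The median stayed below 0 under each scaling tried. The distance of the members from all genes was between -0.32 and -0.33 in each. A scaling multiplies a whole library by a single factor, so this distance is kept by construction. In bulk samples fewer cells of a type and less RNA per cell cannot be told apart, and the marker sums above moved with the same library. Their part in the result was not tested.

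**Figure D2:**
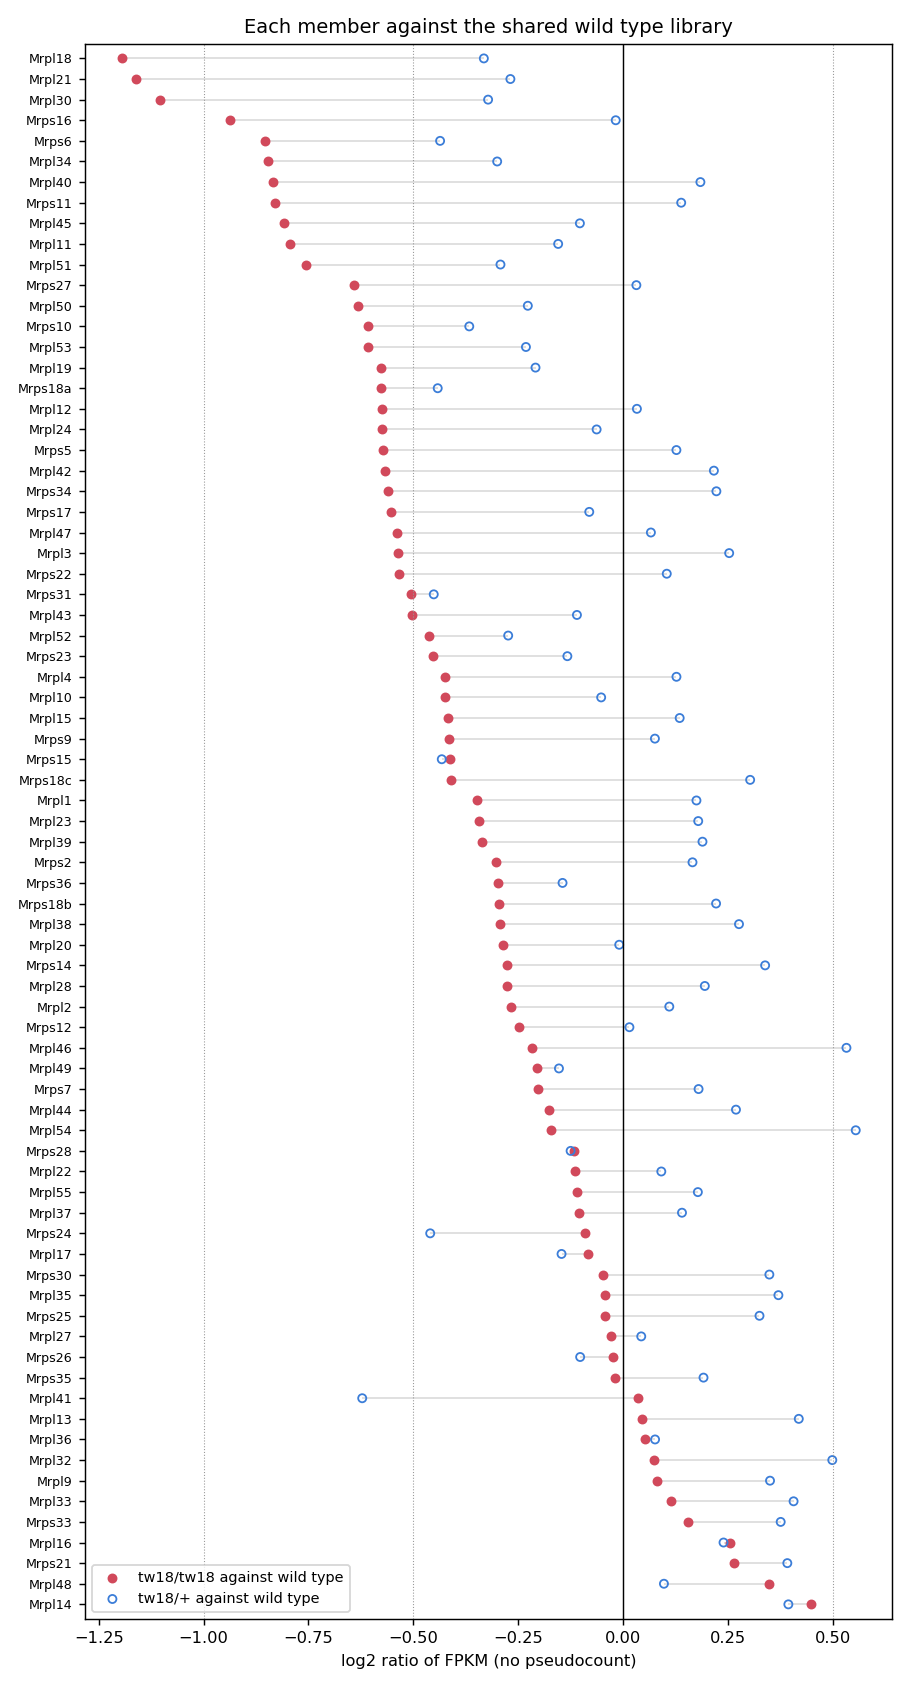
Log2 ratio of FPKM of each member for tw18/tw18 (filled, red) and tw18/+ (open, blue) against the same wild-type library, ordered by the former, with dotted lines at -1, -0.5 and 0.5. The red points run from -1.20 for *Mrpl18* to 0.45 for *Mrpl14* and 65 of 76 lie below 0 (49 with equal FPKM sums), while 30 of 76 blue points do (33 with equal FPKM sums).

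The scale of the libraries bears on these counts. When each library was scaled to the FPKM sum of wild type, the tw18/tw18 values went up by 0.21 on the log2 scale, or by 0.18 when *Lars2* was left out of the sums. The median over all genes then stood at 0.21 and 0.17, and that of the members at -0.13 and -0.16. With equal sums 11 members (14.5%) were lower past 0.5, near the 11.6% of all genes, 2 (2.63%) were higher, beside 34.4% of all genes, and no member was lower past 1, beside 4.27% of all genes. The 16 members that changed sides were those near 0, among them *Mrpl35*, *Mrpl17*, *Mrps25*, *Mrps24* and *Mrpl54*. A single factor per library moves the members and all genes alike, so the distance between them is no check of the result. Whether a member close to 0 was lower or higher than in wild type depended on the scale.

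**Figure D3:**
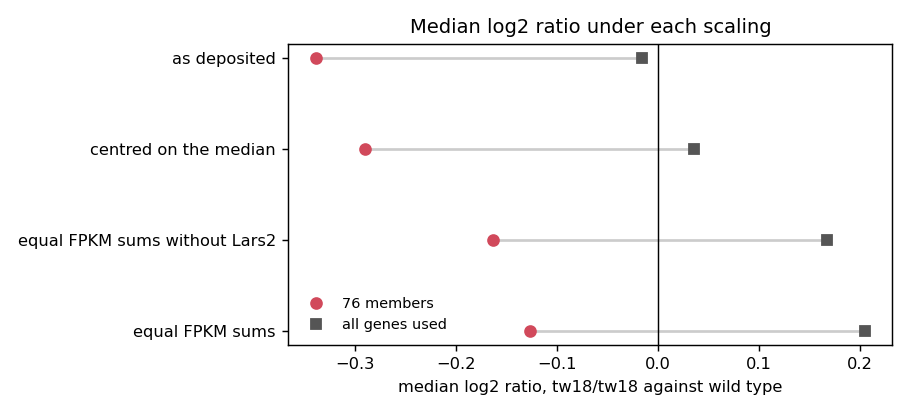
Median log2 ratio of FPKM, tw18/tw18 against wild type, of the 76 members (circles) and of all genes compared (squares) under 4 scalings of the libraries. The members lie at -0.34, -0.29, -0.16 and -0.13 and all genes at -0.02, 0.04, 0.17 and 0.21. A single factor per library shifts both alike, so the gap, between -0.32 and -0.33, is kept by construction.

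The 3 genes with the lowest ratios belong to the large subunit, and each has a bacterial relative. *Mrpl18* (Chr 17, 12911349 to 12916345, GRCm38), whose product is also known for carrying 5S rRNA into mitochondria, reached 117 FPKM in wild type, 93.1 in tw18/+ and 51.2 in tw18/tw18, or 43.7% of wild type (log2 ratio -1.20). The tw18/tw18 value was the lowest of the 3, and tw18/+ stood between. *Mrpl21* (Chr 19, 3282901 to 3292837) had 34.8, 28.9 and 15.6 (44.7%, log2 ratio -1.16). *Mrpl30* (Chr 1, 37890477 to 37898535) had 94.6, 75.7 and 44.0 (46.5%, log2 ratio -1.10). All 3 showed the same order of genotypes, as did 24 of the 76 members (31.6%, beside 20.1% of all genes whose FPKM reached 1). Both shares are of the deposited FPKM. The 3 genes were picked by their ratio to wild type, and a high value in that library favours this order. The fragments behind the *Mrpl18* values were estimated at 1856 in wild type and 1126 in tw18/tw18, which gives a counting error of 0.05 on the log2 ratio. For *Mrpl21*, with 336 and 209 fragments, it was 0.13. Such errors cover counting alone and not the spread between embryos.

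*Mrps16* and *Mrps6* had the lowest ratios in the small subunit. *Mrps16*, a gene mutated in human respiratory chain deficiency, was alike in wild type (55.9) and tw18/+ (55.3) and was 29.2 in tw18/tw18, a log2 ratio of -0.94. *Mrps6* had 27.3, 20.2 and 15.1 (-0.85), and *Mrpl34*, a small rRNA-binding protein of the large subunit, 87.7, 71.2 and 48.8 (-0.85). *Mrpl40*, which has no bacterial relative, had 59.9 in wild type, 68.0 in tw18/+ and 33.6 in tw18/tw18. It was the only member past a log2 ratio of 1 between tw18/tw18 and tw18/+ (-1.02), and its ratio to wild type was -0.83.

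The 11 members that were not lower than wild type in tw18/tw18 had small ratios. *Mrpl14*, a protein of the face of the large subunit that meets the small one, had an FPKM of 18.5, 24.3 and 25.2, the highest log2 ratio of all members (0.45). Its tw18/+ value lay just below that of tw18/tw18. *Mrpl48*, a protein of the central protuberance, had 17.6, 18.8 and 22.3 (0.35), and *Mrps21* had 62.6, 82.2 and 75.2 (0.26). *Mrpl16* had 25.5, 30.1 and 30.4 (0.25), *Mrps33* 28.5, 37.0 and 31.7 (0.16), and *Mrpl33* 42.9, 56.9 and 46.4 (0.11). Of these 6 genes, 5 were higher than wild type by 0.24 to 0.41 in tw18/+, and *Mrpl48* by 0.10. The genes were picked by their ratio to the same wild-type library, and a low value there raises both ratios. The tw18/+ ratios are therefore no independent check of them. The counting error was 0.15 for *Mrpl14* and for *Mrps33*, whose wild-type values rest on about 136 and 148 fragments.

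By symbol, 38 of 47 genes named for the large subunit were lower in tw18/tw18 than in wild type, with a median log2 ratio of -0.33, and 17 were lower past 0.5. For the small subunit symbols these were 27 of 29 genes, a median of -0.41 and 11 genes. Symbols do not give the place of each product: *Mrps18a* is in the large subunit, and *Mrps36* is not in the ribosome. With *Mrps18a* counted in the large subunit, 39 of 48 genes were lower with a median of -0.34. Of the *Mrps* genes left without it and *Mrps36*, 25 of 27 were lower with a median of -0.41. No other gene was moved from the class of its symbol. Summed FPKM was 2222 in wild type, 2302 in tw18/+ and 1676 in tw18/tw18 for the large subunit symbols and 1105, 1129 and 880 for the small. The 46 members listed here with a bacterial relative had a median of -0.35 with 38 lower, and the other 30 a median of -0.32 with 27 lower. Without *Mrps36* the latter were 29 genes, with a median of -0.33 and 26 lower. This split is approximate: *Mrps18c* was counted among the 46, but *Mrps18a* and *Mrps18b*, whose products are related to its own, among the 30. The log2 ratio had a Spearman correlation of -0.12 with mean FPKM and of -0.03 with the length of the reference transcript over the 76 genes. As above these points share the same libraries.

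Some members have a history of their own. The products of *Mrps18a*, *Mrps18b* and *Mrps18c* are related proteins that sit in different places of the mitochondrial ribosome, the first of them in the large subunit. *Mrps18a* had an FPKM of 44.8, 33.0 and 30.0, *Mrps18b* of 72.6, 84.7 and 59.2, and *Mrps18c* of 41.7, 51.4 and 31.4 in wild type, tw18/+ and tw18/tw18. All 3 were lowest in tw18/tw18, but *Mrps18a* was highest in wild type and the others in tw18/+. *Mrps12*, a protein of the decoding centre whose bacterial relative is the target of streptomycin resistance mutations, had 53.8, 54.4 and 45.3 (-0.25). *Mrpl23*, a protein at the exit of the peptide tunnel, had 65.7, 74.4 and 51.8 (-0.34). *Mrps36*, now placed in the 2-oxoglutarate dehydrogenase complex and not in the ribosome, had 43.0, 38.9 and 34.97 (-0.30), and without it the median of the members was -0.34 as before.

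Chr 17, which carries tw18, holds 8 members, and none of them lies in the interval that the study describes as deleted. Besides *Mrpl18* and *Mrpl14* these are *Mrps34*, *Mrpl28*, *Mrps18b*, *Mrps18a*, *Mrpl2* and *Mrps10*, all between 24895116 and 47381417. *Mrps10*, a protein of the small subunit head, had an FPKM of 36.6, 28.4 and 24.0 (-0.61). *Mrps34*, a small subunit protein with no bacterial relative, had 39.2, 45.7 and 26.6 (-0.56). *Mrpl2*, near the peptidyl transferase centre, had 42.4, 45.8 and 35.2 (-0.27). The 8 genes had a median of -0.43 with 7 lower, and they held both the lowest and the highest ratio of all members. In tw18/+, 3 of the 8 were lower than wild type. The paper describes the t haplotype as a variant region of Chr 17, and tw18 as a recombinant of it that carries the deletion. Which of the 8 genes carry t sequence, and whether it changed the mapping of their reads, was not tested.

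In tw18/+ the mitochondrial ribosomal protein genes had no common direction. Against wild type 46 of 76 were higher and 30 lower (43 and 33 with equal FPKM sums, while 49.7% and 54.7% of all genes were lower), with a median log2 ratio of 0.09 and an interquartile range from -0.14 to 0.22, beside 0.00 over all 12281 genes with a range from -0.23 to 0.22. Past 0.5, *Mrpl54* and *Mrpl46* were higher (2.63%, where 11.0% of all genes were) and *Mrpl41* lower (1.32%, where 12.0% were). Past 1 there were 0 in either direction, while 4.0% of all genes were higher and 4.66% lower. These shares lay below those of all genes in both directions. With the minimum raised to 5 FPKM, only 6.28% of 8756 genes were higher past 0.5 and 7.04% lower, so the members lay nearer to them. The comparison of tw18/+ with wild type shares the wild-type library with that of tw18/tw18, so that a value of wild type enters both ratios.

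*Mrpl54* was at 57.1 FPKM in wild type, 83.9 in tw18/+ and 50.7 in tw18/tw18 (0.56 in tw18/+). *Mrpl46*, of the central protuberance, had 27.4, 39.7 and 23.6 (0.53), *Mrpl32*, whose maturation by a mitochondrial protease is needed for ribosome assembly, 21.6, 30.5 and 22.7 (0.50), and *Mrpl13* 63.9, 85.5 and 66.0 (0.42). In these 4 genes tw18/+ was the high library and the other two were near each other. On the low side *Mrpl41* had 8.40, 5.46 and 8.61 (-0.62), from about 78, 71 and 111 fragments, with a counting error of 0.24. *Mrps24* had 32.6, 23.7 and 30.7 (-0.46), *Mrps31* 22.1, 16.1 and 15.6 (-0.45), and *Mrps18a* -0.44 by the values above. The tw18/+ values of *Mrps31* and *Mrps18a* lay near those of tw18/tw18, while *Mrps24* and *Mrpl41* were low in tw18/+ alone.

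Against tw18/+ the tw18/tw18 library was lower in 67 of 76 members (88.2%, beside 49.8% of all genes), or in 54 with equal FPKM sums (71.1%, beside 33.6%), with a median log2 ratio of -0.41 beside 0.00 over all 12703 genes. With the minimum raised to 5 FPKM, the median over 9193 genes was -0.08, and 54.9% were lower. Past 0.5, 29 members were lower (38.2%, beside 19.1% of all genes) and 1, *Mrpl41*, was higher (1.32%, beside 26.7%). With equal sums these became 10 lower (13.2%, beside 9.36% of all genes) and 2 higher (2.63%, beside 37.2%), so the lower share was then near that of all genes. Past 1, *Mrpl40* alone was lower (1.32%, beside 5.3%) and 0 were higher (14.3% of all genes). Over the 3 libraries the lowest value of a member was in tw18/tw18 for 60 genes, in wild type for 10 and in tw18/+ for 6. Of all genes whose FPKM reached 1, 40.9% were lowest in tw18/tw18, 30.3% in wild type and 28.8% in tw18/+. The highest value of a member was in tw18/+ for 43, in wild type for 29 and in tw18/tw18 for 4. The share over all genes was not computed for the highest value, so these counts have no background. All of these counts are of the deposited FPKM. With equal sums, 16 members changed sides between tw18/tw18 and wild type, and 13 between tw18/tw18 and tw18/+.

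The other proteins bound in the mitochondrial ribosome, which carry other symbols, had a median log2 ratio of -0.41 between tw18/tw18 and wild type, with 6 of 7 lower. *Gadd45gip1*, at the peptide exit, had an FPKM of 12.8, 9.54 and 5.86 (-1.12), *Chchd1* 61.7, 70.8 and 39.1 (-0.66) and *Aurkaip1* 48.6, 65.2 and 35.5 (-0.45). *Dap3*, the GTP-binding protein of the small subunit, had 12.2, 10.3 and 10.1 (-0.28), *Ptcd3* 53.8, 54.2 and 42.7 (-0.33) and *Mrp63* 11.9, 11.1 and 8.94 (-0.41). *Ict1*, which frees stalled peptides, was the exception with 30.5, 40.6 and 36.0 (0.24). Of the 11 mitochondrial translation factors 9 were lower, with a median of -0.41. The release factor *Mtrf1* had 7.19, 5.74 and 2.88 (-1.32), the ribosome recycling factor *Mrrf* 14.5, 9.93 and 6.95 (-1.06), *Mtrf1l* -0.64 and the inner membrane insertase *Oxa1l* -0.59. The elongation factors *Tufm*, with 107, 102 and 78.5 (-0.45), and *Tsfm* (-0.41) were near the median, *Gfm1* (-0.18), *Mtif2* (-0.23) and *Mtif3* (-0.09) above it, and *Gfm2* (0.03) and *Mtfmt* (0.20) were not lower. With equal FPKM sums these lists had medians of -0.20 and -0.20, with 6 of 7 and 7 of 11 genes lower.

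**Figure D4:**
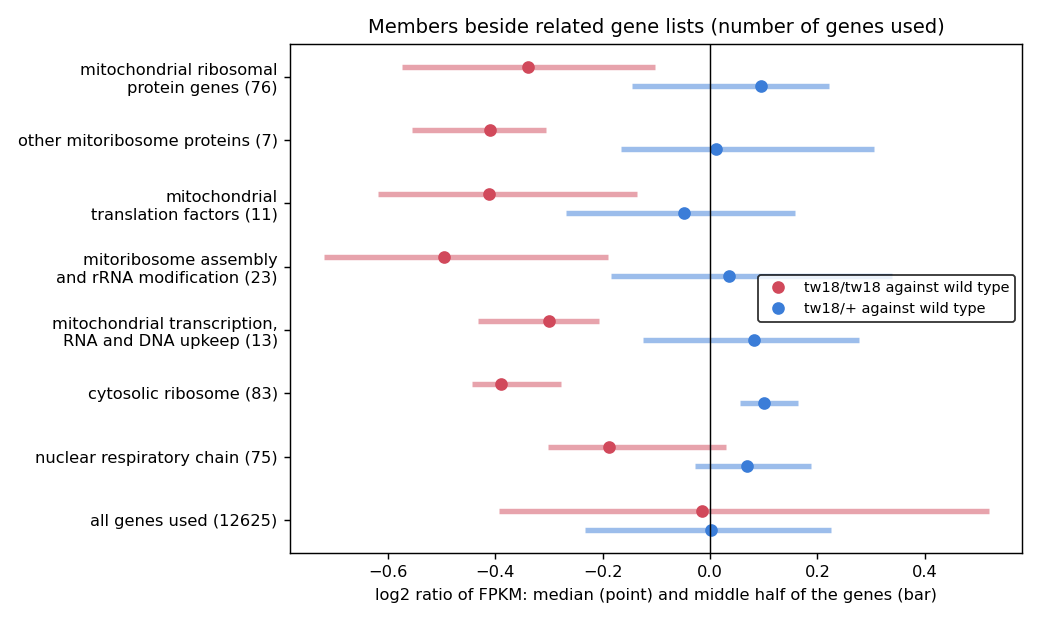
Median log2 ratio of FPKM (points) with the interquartile range (bars) for the members, 6 related lists and all genes compared, tw18/tw18 (red) and tw18/+ (blue) against wild type. In tw18/tw18 the medians of the 6 lists run from -0.50 to -0.19 beside -0.34 for the members, and that of the respiratory chain, -0.19, becomes 0.02 with equal FPKM sums.

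Genes for assembly of the mitochondrial ribosome and modification of its rRNA had a median of -0.50, with 18 of 23 lower (-0.28 and 17 with equal sums). *Mrm1*, an rRNA methyltransferase, had an FPKM of 3.89, 3.41 and 1.92 (-1.02). *Mterfd2*, which guides an rRNA methyltransferase to the large subunit, was higher, with 4.91, 10.4 and 16.3 (1.73), as was *Mpv17l2* with 7.51, 12.4 and 15.9 (1.09). *Tfb1m*, the dimethyltransferase of the small subunit rRNA, had 7.60, 12.7 and 5.36 and *Rpusd3* 11.4, 16.7 and 7.81, each past 1 against tw18/+ (-1.25 and -1.10). Genes of mitochondrial transcription, RNA and DNA upkeep had a median of -0.30 with 10 of 13 lower, and *Polg2*, the accessory subunit of the mitochondrial DNA polymerase, was past 1 against tw18/+ (4.48, 5.78 and 2.84, -1.02). Of 9 regulators of mitochondrial gene expression compared, 7 were lower, with a median of -0.30. *Mycn* had 56.3, 58.0 and 28.0 (-1.01), *Nrf1* 15.2, 15.5 and 10.9 (-0.48) and *Gabpa* 32.9, 31.8 and 26.7 (-0.30), while *Esrra*, the orphan receptor that works with the PGC-1 coactivators, had 2.58, 5.88 and 9.91 (1.94). *Ppargc1b* had 2.81, 1.28 and 3.49. *Ppargc1a* was at or near 0 throughout. These last lists had medians of -0.09 each with equal sums.

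The cytosolic ribosome had a median log2 ratio of -0.39 in tw18/tw18 against wild type, with 79 of 83 genes lower, and -0.18 with 71 lower with equal FPKM sums. Its range was narrower than that of the mitochondrial ribosomal protein genes, with quartiles at -0.44 and -0.28 against -0.57 and -0.10. *Rpl34* (1.08), *Rpl26* (1.41), *Rpl10l* (2.41) and *Rpl39l* (1.11) were higher past 1, and *Rpl30* was lower past 1 against tw18/+ (-1.04). The nuclear genes of the respiratory chain had a median of -0.19 with 54 of 75 lower, which became 0.02 with 32 lower with equal sums. Of these *Atp5sl* was lower past 1 (-1.56), and *Cox6b2* (2.50), *Cox7a1* (1.11) and *Atp5s* (1.81) were higher. The genes of the mitochondrial ribosome were thus placed nearer to those of the cytosolic ribosome than to those of the respiratory chain. No test of these distances was made.

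Promoter sequences were compared because most members were placed on one side of wild type in the tw18/tw18 library. The stretch from 250 bases before to 50 after the start was found in RefSeq (GRCm38.p6) for 67 of the 76 members. The median GC content was 58% in the members, 61% in 9662 promoters of genes with an FPKM of at least 1 and 52.7% in all 27025 promoters. For a view of shared letters, 3 motifs known from nuclear genes of mitochondria were searched on both strands. The NRF1 letters GCATGCGC were in 8 member promoters (11.9%), against 5.57% of the promoters of expressed genes and 2.80% of all. The ETS letters CCGGAAGT, as bound by GABPA, were in 11 (16.4%, against 8.29% and 4.01%). The YY1 letters AAGATGGC were in 12 (17.9%, against 4.72% and 2.85%). These letters hold ATG, and the window runs 50 bases past the start. Whether a match was the start codon of a message, or lay in a neighbouring gene on the opposite strand, was not tested. No match of one of these motifs can hold another, but the NRF1 letters can overlap their own reverse complement, as in the *Mrpl32* promoter. Of the other motifs, the E box CACGTG bound by MYC proteins was in 5 (7.46%, against 10.4% and 7.20%), the TATA box TATAAA in 4 (5.97%, against 6.99% and 14.2%) and CCAAT in 27 (40.3%, against 39.1% and 37.9%). A match is a description of these letters and not of binding.

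**Figure D5:**
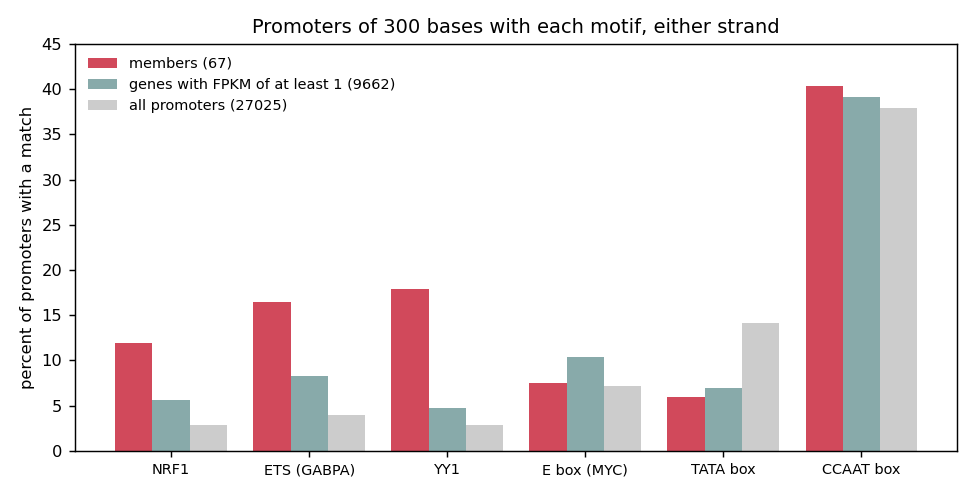
Percent of promoters of 300 bases that hold each motif on either strand, for 67 members (red), 9662 genes with an FPKM of at least 1 (green) and all 27025 promoters (grey), with bars starting at 0. The red bar is above both others for NRF1 (11.9%), ETS (16.4%) and YY1 (17.9%), and near the green one for the E box, TATA and CCAAT.

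The promoters of 4 members are given, from lower to higher ratio of tw18/tw18 to wild type, to show these matches in place. They are *Mrpl18*, with the lowest ratio (-1.20) and an ETS match, *Mrps11* (29.6, 32.6 and 16.7, -0.83) with a YY1 match, *Mrpl32* (0.08) with NRF1 matches and a YY1 match, and *Mrpl14*, with the highest ratio (0.45) and no match to the 3 motifs. Capitals mark the NRF1, ETS and YY1 letters on either strand, and each sequence is written 5′ to 3′ on the strand of the gene. The YY1 matches of *Mrps11* and *Mrpl32* are on the opposite strand, where a neighbouring gene starts. This is *Mrpl46* for *Mrps11*, and *Psma2* at 75 bases for *Mrpl32*. Whether these matches belong to the neighbour was not tested.
Mrpl18, chr17:12916042-12916341, minus strand: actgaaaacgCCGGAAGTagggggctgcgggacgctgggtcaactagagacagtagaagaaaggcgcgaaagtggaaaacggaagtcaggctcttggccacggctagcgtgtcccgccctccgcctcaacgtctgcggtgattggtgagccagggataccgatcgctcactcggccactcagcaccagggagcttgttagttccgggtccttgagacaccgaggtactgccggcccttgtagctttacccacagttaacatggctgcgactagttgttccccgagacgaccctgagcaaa
Mrps11, chr7:78782881-78783180, plus strand: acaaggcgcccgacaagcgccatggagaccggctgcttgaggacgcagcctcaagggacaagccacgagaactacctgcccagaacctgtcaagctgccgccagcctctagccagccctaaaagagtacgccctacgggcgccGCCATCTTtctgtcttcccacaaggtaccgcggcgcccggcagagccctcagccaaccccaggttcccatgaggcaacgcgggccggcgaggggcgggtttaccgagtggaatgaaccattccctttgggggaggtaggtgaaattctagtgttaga
Mrpl32, chr13:14612988-14613287, minus strand: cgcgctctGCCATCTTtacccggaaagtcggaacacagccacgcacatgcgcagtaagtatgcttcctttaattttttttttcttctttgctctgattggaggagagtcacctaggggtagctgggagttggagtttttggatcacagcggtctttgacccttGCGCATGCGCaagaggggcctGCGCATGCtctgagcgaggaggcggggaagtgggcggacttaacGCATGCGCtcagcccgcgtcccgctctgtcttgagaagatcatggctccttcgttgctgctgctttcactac
Mrpl14, chr17:45686099-45686398, plus strand: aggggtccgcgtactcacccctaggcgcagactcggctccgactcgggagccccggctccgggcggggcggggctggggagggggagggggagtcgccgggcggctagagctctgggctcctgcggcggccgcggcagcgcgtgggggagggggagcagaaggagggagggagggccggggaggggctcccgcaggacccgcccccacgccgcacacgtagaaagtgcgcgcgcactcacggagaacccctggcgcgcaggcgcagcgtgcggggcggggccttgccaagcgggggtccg
*Mrpl21* and *Mrpl30*, the others past 1, had none of the 3 motifs in these windows, and neither had *Mrpl48*, *Mrps21*, *Mrpl16* and *Mrps33*, the next highest ratios after *Mrpl14*. No statement on the factors follows from this.

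Many members share their start region with another gene. A neighbour on the opposite strand, starting within 1000 bases upstream or overlapping by at most 500, was annotated for 25 of the 76 members (32.9%), against 14.0% of 11921 protein-coding genes with an FPKM of at least 1. *Mrpl46* and *Mrps11* form such a pair on Chr 7, and had log2 ratios of -0.22 and -0.83 in tw18/tw18. Starts here are the outermost ends of the genes in GENCODE. By these the pair overlaps, but by the RefSeq starts of the promoter windows it does not. *Mrps12* has *Sars2*, the mitochondrial seryl-tRNA synthetase, at 172 bases (-0.25 and -0.27), *Mrpl51* has *Ncapd2* at 100 bases (-0.76 and -0.69) and *Mrpl49* has *Fau*, a gene of the cytosolic ribosome, at 59 bases (-0.21 and -0.51). The 25 members had a median of -0.27 with 21 lower. For genes that overlap, whether counting used the strand is not given in the sources used here. Sequence shared with other genes is a further limit of single values. In 12 members over 10% of the 50-base words of the transcripts occur in another gene, and their values are uncertain. These are *Mrpl53* (82.0%), *Mrps34* (34.2%), *Mrpl22*, *Mrpl27*, *Mrps18c*, *Mrps6*, *Mrps36*, *Mrps18b*, *Mrps33*, *Mrps24*, *Mrpl23* and *Mrpl41*. Without them the other 64 members had a median of -0.38 with 55 lower.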

How the data were processed

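RNA of 3 samples, 1 library per genotype, was sequenced as paired-end reads of 50 bases after 14 cycles of PCR. Reads were mapped by the authors to the mm10 build (GRCm38), and they deposited 1 table of FPKM values by gene symbol, which Cuffdiff gave. The submitters' processing notes name TopHat2, Bowtie 1.0.0 and Cufflinks 2.2.1. The gene annotation, the library normalization of Cuffdiff and its use of strand are not given in the sources used here. FPKM is already divided by transcript length and library size. The columns name the genotypes and match the labels.

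Values were computed in Python 3.11.15 (pandas 2.3.3, numpy 2.4.6, scipy 1.17.1; plots with matplotlib 3.10.9). A gene entered a comparison with an FPKM of at least 1 in the higher library and above 0 in both, and log2 ratios had no pseudocount. Steps of 0.5 and 1 were counted. No test was possible with 1 library per genotype. Depth came from low FPKM values of transcripts of at least 800 bases, 74.7% to 84.4% of which lay within 0.2 of whole fragments, less 150 bases for the fragment length. Fragment numbers and their counting errors are estimates, and amplified fragments are not independent molecules. The calculation was tested on simulated data. Positions were from GENCODE M21 (GRCm38), found for 21847 genes.

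The members and lists were chosen with earlier results of these data known. Members named are the 6 highest and 6 lowest by mean FPKM, the 6 highest and 6 lowest ratios in tw18/tw18 and the 4 highest and 4 lowest in tw18/+, those past 1 in any pair, those on Chr 17, the *Mrps18* paralogs and *Mrpl12*, *Mrps12*, *Mrpl23* and *Mrps36*. Non-members named are the 2 lists on the ribosome and translation, list genes past 1 in a pair, *Ppp2r1a* and *Lars2*. *Mrps11*, *Mrpl51*, *Mrpl49*, other members given for shared sequence, neighbours or change of side, the regulators *Nrf1*, *Gabpa* and *Ppargc1a*, the globin genes and the neighbours were chosen after their values were seen. Alternatives were pseudocounts of 0.1 and 1, an FPKM of at least 5, no filter, centring on the median log2 ratio, equal FPKM sums with and without *Lars2*, and leaving out *Mrps36*.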

Additional observations from a re-analysis of the deposited data

How the results depend on the processing

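Of 132 summary values recomputed under alternatives, 109 stayed within 0.1 (log2) or a factor of 1.5 and 23 moved. The 15 values with an FPKM of at least 5 and the 15 without a filter could not change, since all members lie above 5. The values of all genes beside them did change. For tw18/tw18 against wild type the distance of the members from all genes was -0.27 with the minimum of 5 and -0.33 without a filter. Only the medians of both tw18/tw18 comparisons could count as reversed, and they kept their sign. All but 2 of those that moved did so with equal FPKM sums, taken with or without *Lars2*. With equal sums the median log2 ratio was -0.13 for tw18/tw18 against wild type and -0.16 against tw18/+, and -0.16 and -0.19 without *Lars2*. Members past 0.5 against wild type were then 2 higher and 11 lower under both. Against tw18/+ they were 2 higher and 10 lower, or 2 and 11 without *Lars2*. In tw18/+ against wild type 1 was higher under both, and 2 were lower without *Lars2*. Past 1 in tw18/tw18 against wild type, 0 were lower, or 1 without *Lars2*. The single member past 1 against tw18/+ became 0 under both, with a pseudocount of 1 and with centring. The summed FPKM of the members in tw18/tw18 became 2960 and 2885. Of 570 ratios of single named members, 501 kept their side of 0.5 and their direction, 36 came within 0.5, 7 went past it and 26 near 0 changed sign. The shifts with equal sums follow from the construction of the scaling. No paired analysis was possible because each genotype has 1 library and no test was made. Depth limits *Mrpl41* the most, with 78, 71 and 111 fragments.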

Other observations

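Some genes that start next to a member, on the opposite strand, differed from it in tw18/tw18. These were chosen after their values were seen, and no test was made. *Mitd1*, at 66 bases from *Mrpl30*, was at 10.7 FPKM in wild type, 15.1 in tw18/+ and 17.02 in tw18/tw18, a log2 ratio of 0.67 beside -1.10 for *Mrpl30*. *Klc4*, at 207 bases from *Mrpl2*, had 10.01, 10.1 and 19.4 (0.95 beside -0.27), and *Eme2*, at 29 bases from *Mrps34*, had 3.86, 3.58 and 7.41 (0.94 beside -0.56). In the other direction *Ndufs6*, a subunit of respiratory complex I next to *Mrpl36*, had 122, 125 and 82.9 (-0.55 beside 0.05). Its start overlaps that of *Mrpl36* only if the GENCODE gene start of *Mrpl36*, 73328513, is taken. The RefSeq promoter window of *Mrpl36* begins at 73330759. *Psma2*, a proteasome subunit at 75 bases from *Mrpl32*, had 182, 219 and 133 (-0.45 beside 0.08).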
